A study of Mus musculus with 5 samples.

Results

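The genes described here encode proteins that carry a cell through mitosis: protein kinases, kinesin motors, centromere and kinetochore proteins, checkpoint proteins, spindle proteins and the proteins of cytokinesis. They are 48 of the 46959 gene symbols in the deposited tables and were picked by name, from a list drawn up with earlier results of these data known. All 48 had a row in every table and all 48 passed the filter on low counts. The comparison was between caMNK cells (3 libraries), in which MNK is constitutively active, and pBABE cells (2 libraries), which carry the pBABE vector and are the study's control. Both are D4M.3A cells, a mouse melanoma line of C57BL/6 background, at passages 7 to 12. The RNA extract note names the active kinase as caMNK1, and no drug treatment or time course is given. Group and cell population go together here, so what the kinase did cannot be told apart from other differences between these cells. The libraries are called biological replicates, without a statement of how the cultures were kept apart, so the p-values measure the spread between these libraries.

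In a dividing cell, the Aurora and Polo-like kinases start spindle assembly, kinesins slide and depolymerise microtubules, and kinetochores tie each centromere to the spindle. The BUB and MAD proteins hold back CDC20 and the anaphase-promoting complex until every kinetochore is attached, and a ring of actin and myosin then cuts the cell apart. Most of these genes are transcribed late in the cell cycle, under the MuvB complex with B-MYB and FOXM1, which binds promoters through the cell cycle genes homology region. In bulk RNA, fewer cells near mitosis and less RNA per cell cannot be told apart.

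Mknk1, the gene of the expressed kinase, stood at 167, 155 and 168 CPM (read counts scaled to the TMM-adjusted library total) in caMNK replicates 1, 2 and 3, against 15.2 and 16.7 CPM in pBABE replicates 1 and 2. Its log2 fold change was 3.36 (SE 0.104, edgeR adjusted p = 4.81e-06), so the libraries matched their labels. Libraries held 27827199 to 48794336 counts in caMNK and 32963884 to 42730166 in pBABE. Each member had 584 to 37199 counts in a library. Of 12 melanoma and pigment cell markers 7 were tested: Axl, the most abundant, had a log2 fold change of -0.23 (edgeR adjusted p = 0.11), and Sox9 rose by 1.06 (adjusted p = 0.00336). Tyrp1 and Dct were at 0 in every library and Tyr, Mlana and Sox10 had at most 2 counts, while Mitf had 135 to 315 counts in caMNK and 202 to 247 in pBABE. T and B cell markers summed to 0.05 to 0.08 CPM in caMNK and 0.09 to 0.14 CPM in pBABE, with 5 of the 7 at 0. Fibroblast markers summed to 136 to 174 CPM in caMNK and 221 to 227 CPM in pBABE, and macrophage markers to 13.2 to 18.2 CPM in caMNK and 13.3 to 14.9 CPM in pBABE. Endothelial markers summed to 3.54 to 3.63 CPM in caMNK and 5.47 to 9.48 CPM in pBABE, mostly Cdh5 (log2 fold change -1.43, edgeR adjusted p = 0.0141), while Tek and Pecam1 had values of 0.82 and 1.07 (adjusted p = 0.213 and 0.264). Keratinocyte markers summed to 4.74 to 5.05 CPM in caMNK and 3.69 to 3.74 CPM in pBABE. Their part in the results below was not tested.

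The mitotic genes were on the low side in caMNK cells, by small amounts that differed between the caMNK libraries. Together they took 0.620%, 0.646% and 0.543% of all counts in caMNK replicates 1, 2 and 3, against 0.642% and 0.656% in pBABE replicates 1 and 2. The log2 fold change, caMNK over pBABE, was negative for 36 of the 48 and positive for 12, with a median of -0.13 and a range of -0.45 to 0.22. Over all 17026 genes tested, 50.4% had a negative value and the median was -0.002. At an adjusted p under 0.05, Bub1b and Cit fell and no member rose, while 3.52% of all genes tested were called lower and 4.42% higher. Without adjustment, 8 of the 48 members had an edgeR p under 0.05, all lower, where 12.1% of all genes were lower and 13.8% higher at that p, so the share lower is near that of all genes. They were Bub1b, Cit, Nek2, Plk1, Cenpf, Aspm, Tpx2 and Racgap1. DESeq2 called Aspm, Bub1b and Cit lower and none higher, where it called 5.18% of genes lower. In 22 members (45.8%) every caMNK library lay below both pBABE libraries, which held for 22.6% of all genes tested, and in 25 the groups overlapped. Cks2 was the member with every caMNK library above both pBABE libraries, a pattern that 22.3% of all genes tested showed.

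**Figure D1:**
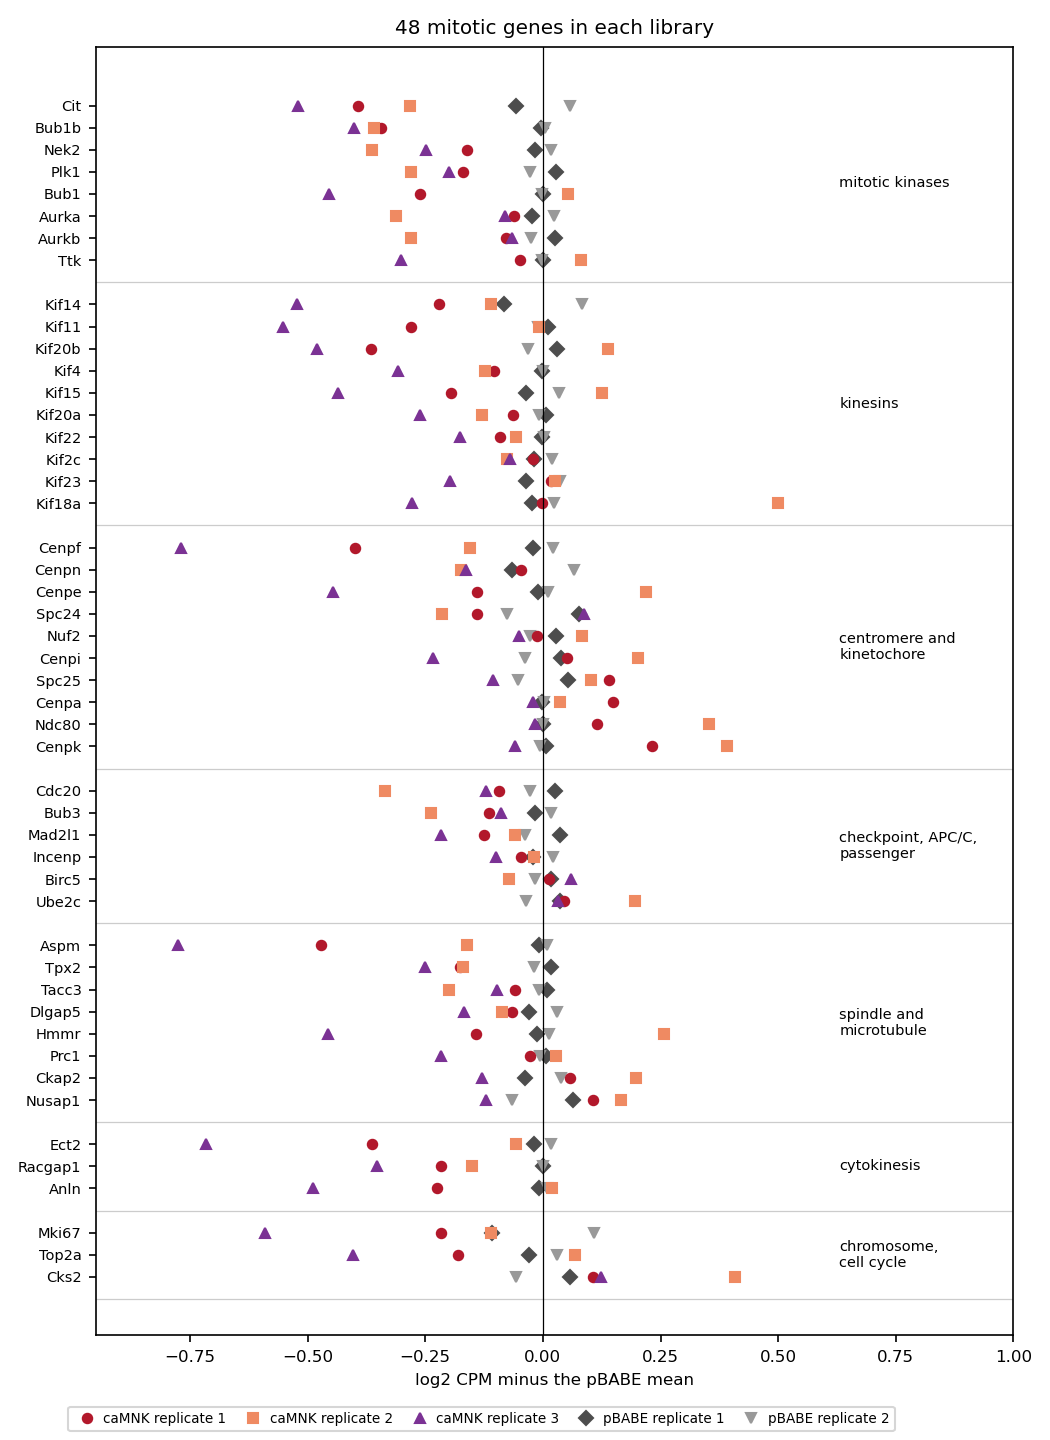
Each row is a gene and each point a library, plotted as log2 CPM minus the mean of the 2 pBABE libraries, with the genes grouped by role. The purple triangles of caMNK replicate 3 lie left of 0 for 44 of 48 genes, the orange squares of caMNK replicate 2 for 27.

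The caMNK libraries did not move together. Relative to the pBABE mean, the median member stood at -0.09 log2 units in caMNK replicate 1, -0.06 in caMNK replicate 2 and -0.22 in caMNK replicate 3, while the median of all genes tested was -0.01, 0.00 and 0.01. Members below the pBABE mean numbered 37, 27 and 44 of 48 in caMNK replicates 1, 2 and 3. Replicate 3 was the lowest caMNK library for 36 members (75%), against 37.3% of all genes tested. Replicate 2 was the highest for 31 members (64.6%), against 40.1% of all genes tested. Left out of the fit, replicate 2 decided the number of calls: 19 of 48 members (39.6%) were then called lower and 0 higher, beside 15.7% of genes called lower and 13.9% called higher over the 16675 genes of that fit. The median log2 fold change of the members was hardly moved by this, at -0.14. Leaving out pBABE replicate 1, pBABE replicate 2 or caMNK replicate 1 left 0 members called lower in edgeR, where 0.0688%, 0.101% and 0.474% of all genes were. Leaving out caMNK replicate 3 left 1, Bub1b, where 4.6% of genes were called lower. The median log2 fold change of the members was then -0.09, with 32 of 48 negative, against -0.13 and 36 with all libraries.

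The kinases held the 2 members called, where 3.52% of all genes were called lower. The 8 members of this role had negative log2 fold changes throughout, with a median of -0.21, and in 6 of the 8 every caMNK library lay below both pBABE libraries, as in 22.6% of all genes tested. Bub1b encodes BUBR1, a pseudokinase that binds CDC20 in the mitotic checkpoint complex. It lies on chromosome 2 at 118598211 to 118641591 on the plus strand (mm10). Cit encodes citron kinase, which acts at the midbody late in cytokinesis, and lies on chromosome 5 at 115845278 to 116008947 on the plus strand (mm10).

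The promoters of the 4 members with the lowest p are shown because the letters bound by the late cell cycle regulators can be looked for in them. Each is the 300-base RefSeq window (GRCm38.p6, the assembly of mm10) from 250 bases before to 50 bases after an annotated start, on the plus strand, read 5′ to 3′. Capitals mark the letters of the cell cycle genes homology region (TTTGAA or TTCGAA, or TTCAAA on the other strand) and of the CCAAT box (CCAAT, or ATTGG on the other strand). The windows are chr2:118597961-118598260 for Bub1b, chr5:115845406-115845705 for Cit, chr1:139454523-139454822 for Aspm and chr1:191821223-191821522 for Nek2.
Bub1b: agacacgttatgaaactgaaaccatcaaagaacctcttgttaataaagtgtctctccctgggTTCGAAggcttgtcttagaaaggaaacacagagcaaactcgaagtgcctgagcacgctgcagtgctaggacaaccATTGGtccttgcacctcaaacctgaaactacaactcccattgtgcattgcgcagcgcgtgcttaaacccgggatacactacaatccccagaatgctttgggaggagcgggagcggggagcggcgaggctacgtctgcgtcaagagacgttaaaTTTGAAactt
Cit: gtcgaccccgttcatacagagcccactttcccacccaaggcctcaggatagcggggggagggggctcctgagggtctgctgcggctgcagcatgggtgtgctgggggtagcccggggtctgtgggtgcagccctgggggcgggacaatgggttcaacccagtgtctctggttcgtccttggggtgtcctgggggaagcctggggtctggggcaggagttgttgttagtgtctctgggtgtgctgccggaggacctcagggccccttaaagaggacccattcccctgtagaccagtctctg
Aspm: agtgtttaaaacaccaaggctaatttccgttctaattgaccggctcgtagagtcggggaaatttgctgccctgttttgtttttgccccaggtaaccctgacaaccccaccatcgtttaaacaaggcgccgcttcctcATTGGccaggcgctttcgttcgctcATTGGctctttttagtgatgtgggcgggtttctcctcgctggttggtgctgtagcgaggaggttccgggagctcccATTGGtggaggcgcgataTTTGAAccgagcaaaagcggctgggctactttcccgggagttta
Nek2: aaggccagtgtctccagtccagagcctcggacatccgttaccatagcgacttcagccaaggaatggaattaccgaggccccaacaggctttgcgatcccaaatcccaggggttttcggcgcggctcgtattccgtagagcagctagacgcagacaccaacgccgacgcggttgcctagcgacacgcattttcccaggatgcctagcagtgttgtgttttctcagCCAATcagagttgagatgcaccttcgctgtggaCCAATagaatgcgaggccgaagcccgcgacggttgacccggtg
The Bub1b and Aspm windows held both kinds of letters, the Nek2 window only CCAAT letters and the Cit window neither. The Cit window lies inside the GENCODE span of the gene, so the bases before the gene start at 115845278 were not searched. Windows were given for 42 of the 48 members, 47 windows in all. Homology region letters stood in 33 of the 47 (70.2%), against 14.0% of 13676 windows of genes tested and 19.2% of all 32851 windows. CCAAT letters stood in 35 (74.5%), against 37.6% of the windows of genes tested and 37.4% of all windows, and both stood in 28 (59.6%), against 5.66% and 7.52%. A match is a run of letters and not a measured binding site, and the members were chosen for roles known to go with these letters.

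Bub1b had 132, 131 and 127 CPM in caMNK replicates 1, 2 and 3, against 168 and 169 CPM in pBABE replicates 1 and 2. The 5 libraries fell into tight groups that did not overlap, and caMNK was 22.5% lower (log2 fold change -0.37, SE 0.0791, edgeR adjusted p = 0.0284). It differed little among the caMNK libraries, and without caMNK replicate 2 its log2 fold change was again -0.37 with an adjusted p of 0.000682. The call was lost without pBABE replicate 1 (adjusted p = 0.270), pBABE replicate 2 (0.255) or caMNK replicate 1 (0.133). Cit had 37.6, 40.6 and 34.4 CPM in caMNK, against 47.4 and 51.3 CPM in pBABE. Its groups did not overlap either, and caMNK was 24.0% lower, a log2 difference of -0.40 (SE 0.10, edgeR adjusted p = 0.0487). That p lies just inside the threshold and did not hold under several other settings, among them other scalings and pBABE replicate 1 (adjusted p = 0.255), pBABE replicate 2 (0.355), caMNK replicate 1 (0.176) or caMNK replicate 3 (0.0571) left out.

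Nek2, a kinase that releases the linkage between centrosomes, was at 74.5, 64.8 and 70.2 CPM in caMNK and 82.3 and 84.3 CPM in pBABE. Plk1, Polo-like kinase, was at 124, 115 and 121 CPM in caMNK and 142 and 137 CPM in pBABE. Both had all caMNK libraries below both pBABE libraries and did not pass the adjusted threshold, with log2 fold changes of -0.26 (SE 0.0903, adjusted p = 0.118) and -0.22 (SE 0.0830, adjusted p = 0.144) in edgeR. In both, and in Aurka and Aurkb, replicate 2 was the lowest caMNK library, the opposite of most members. Aurka and Aurkb encode the Aurora kinases of spindle poles and of the chromosomal passenger complex, and had log2 fold changes of -0.15 and -0.14 with edgeR adjusted p of 0.397 and 0.402. Bub1, the checkpoint kinase at kinetochores, had 81.8, 102 and 71.6 CPM in caMNK, against 98.2 and 98.1 CPM in pBABE. Its caMNK replicate 2 lay above both pBABE libraries and the other caMNK libraries below. Its edgeR adjusted p was 0.395 with all libraries, 0.00217 without caMNK replicate 2 and 0.641 without caMNK replicate 3. Ttk, the kinase MPS1 of the checkpoint, had a log2 fold change of -0.08 (edgeR adjusted p = 0.717).

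**Figure D2:**
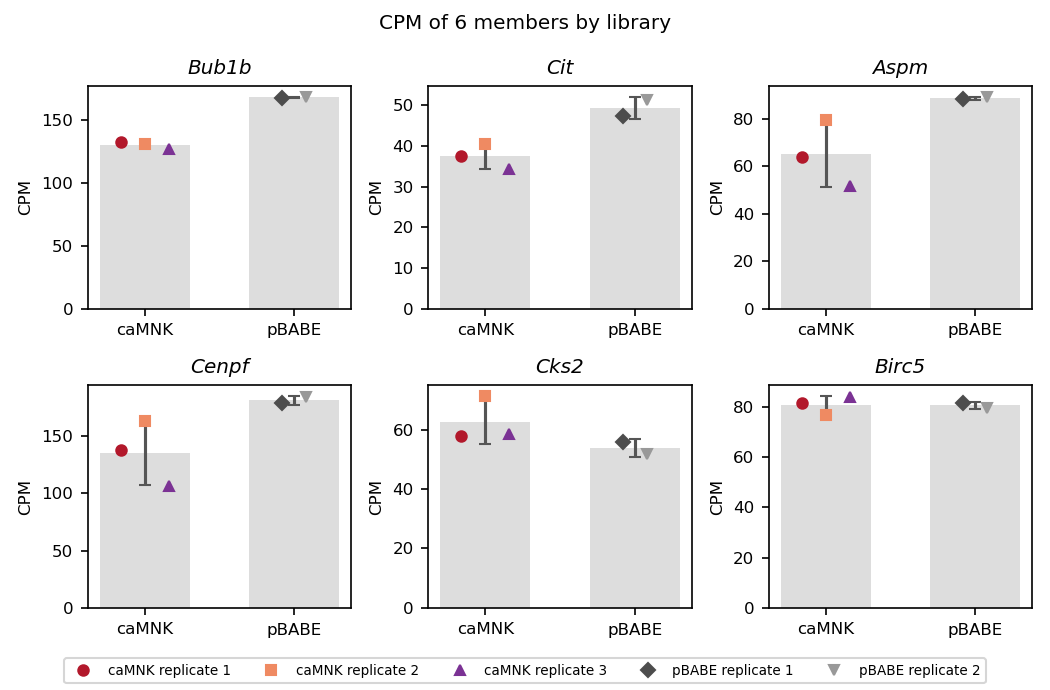
CPM of 6 genes in each library: bars are group means, error bars the SD (caMNK n = 3, pBABE n = 2), points the libraries. Bub1b is near 130 CPM in every caMNK library and near 168 CPM in pBABE, whereas Aspm and Cenpf spread widely within caMNK, and Birc5 has the same mean in both groups.

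None of the 10 kinesins was called, and 9 had a negative log2 fold change (median -0.15). Kif14, a motor that works with citron kinase in cytokinesis, had 29.9, 32.3 and 24.2 CPM in caMNK, against 32.9 and 36.9 CPM in pBABE. All caMNK libraries were lower, by a log2 fold change of -0.28 (SE 0.131, edgeR adjusted p = 0.228). Kif11, or Eg5, slides spindle poles apart, and had 157, 190 and 130 CPM in caMNK, against 192 and 189 CPM in pBABE. Here caMNK replicate 2 lay between the pBABE libraries. The log2 fold change was -0.26 (SE 0.143, edgeR adjusted p = 0.289) with all libraries and -0.41 (adjusted p = 0.00150) without caMNK replicate 2. Without caMNK replicate 3 instead, it was -0.14 (adjusted p = 0.454). Kif4, a chromokinesin, had 91.4, 90.2 and 79.4 CPM in caMNK, against 98.2 and 98.3 CPM in pBABE (log2 fold change -0.18, SE 0.0924, edgeR adjusted p = 0.273). It overlaps Pdzd11 on the opposite strand by 832 bp. Whether reads in an overlap were counted for both genes is not known for any overlap named here. Kif20a, the motor MKLP2 of the central spindle, had 190, 181 and 166 CPM in caMNK, against 199 and 197 CPM in pBABE (log2 fold change -0.15, edgeR adjusted p = 0.340), and it shares 2327 bp with Cdc23.

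Kif20b and Kif15 followed Kif11. Kif20b, a motor of late cytokinesis, had 96.6, 137 and 89.3 CPM in caMNK, against 127 and 122 CPM in pBABE, and Kif15, a motor that helps keep spindles bipolar, had 68.8, 85.9 and 58.2 CPM in caMNK, against 76.8 and 80.7 CPM in pBABE. In each, caMNK replicate 2 was the highest of the 5 libraries and caMNK replicate 3 the lowest. Their edgeR adjusted p were 0.478 and 0.576 with all libraries and 0.000351 and 0.00900 without caMNK replicate 2. Without caMNK replicate 3 they were 0.737 and 0.928. Kif18a, which limits chromosome oscillation at the metaphase plate, was the kinesin with a positive value (log2 fold change 0.11, edgeR adjusted p = 0.769). Its 25.9, 36.7 and 21.4 CPM in caMNK lay on both sides of 25.5 and 26.4 CPM in pBABE, and it overlaps Mettl15 by 11 bp. The remaining kinesins were Kif22, a chromosome arm motor, Kif2c, the microtubule depolymerase MCAK, and Kif23, the motor of centralspindlin, at log2 fold changes of -0.11, -0.06 and -0.05.

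**Figure D3:**
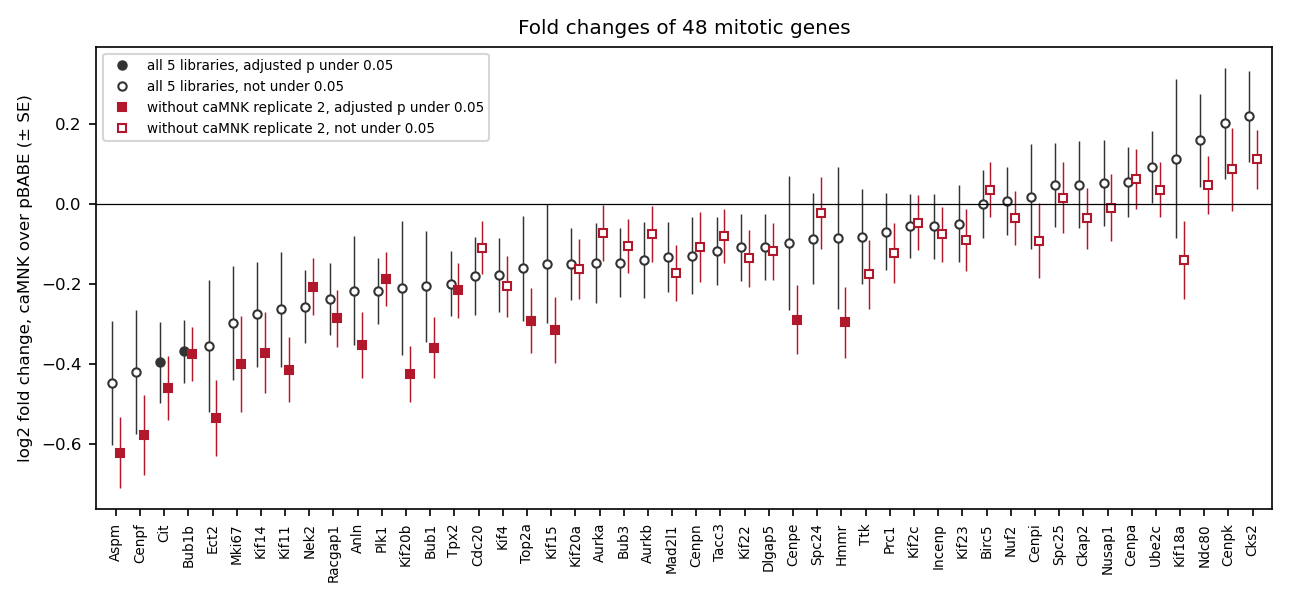
Log2 fold change, caMNK over pBABE, with its standard error for each gene, from all 5 libraries (circles) and without caMNK replicate 2 (squares), filled where the adjusted p was under 0.05. With all libraries Cit and Bub1b are filled, and without caMNK replicate 2 another 17 genes are.

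Centromere and kinetochore genes were divided: 4 of 10 had a negative log2 fold change and 6 a positive, the median was 0.01, and none was called. The tally turned with single libraries: without caMNK replicate 2 it was 6 negative and 4 positive (median -0.03), without pBABE replicate 2 it was 7 negative and 3 positive (median -0.02), and without caMNK replicate 3 it was 3 negative and 7 positive (median 0.07). Cenpf, a large protein of the outer kinetochore and nuclear envelope, had 138, 163 and 106 CPM in caMNK, against 179 and 184 CPM in pBABE. Every caMNK library was lower than both pBABE libraries, yet they spread from 106 to 163 CPM, and the log2 fold change of -0.42 (SE 0.156) had an edgeR adjusted p of 0.134. Without caMNK replicate 2 it was -0.58 with an adjusted p of 0.00124, and without caMNK replicate 3 -0.27 with an adjusted p of 0.128. Cenpe, a kinesin-like motor of the kinetochore, had 162, 208 and 131 CPM in caMNK, against 177 and 180 CPM in pBABE. Its log2 fold change was -0.10 (edgeR adjusted p = 0.768) with all libraries and -0.29 (adjusted p = 0.0201) without caMNK replicate 2. Without caMNK replicate 3 it was 0.05 (adjusted p = 0.812).

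The microtubule-binding NDC80 complex showed no call in any subunit. Ndc80 had 69.8, 82.4 and 63.7 CPM in caMNK, against 64.4 and 64.5 CPM in pBABE, so caMNK replicate 3 lay just below both pBABE libraries and the other two above (log2 fold change 0.16, SE 0.116, edgeR adjusted p = 0.430). Nuf2, Spc24 and Spc25, its partners in the complex, had log2 fold changes of 0.01, -0.09 and 0.05. Of the other centromere and kinetochore proteins, Cenpk had 21.4, 23.8 and 17.4 CPM in caMNK, against 18.3 and 18.1 CPM in pBABE (log2 fold change 0.20, SE 0.139, edgeR adjusted p = 0.405). Cenpk overlaps Ppwd1 by 233 bp. Cenpn had 28.7, 26.2 and 26.4 CPM in caMNK, against 28.3 and 31.0 CPM in pBABE (log2 fold change -0.13, SE 0.0968, edgeR adjusted p = 0.449). In both genes the groups overlapped. Cenpa, the histone H3 variant that marks centromeres, and Cenpi were at log2 fold changes of 0.06 and 0.02.

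The 6 checkpoint adaptors, anaphase-promoting complex factors and passenger subunits had a median log2 fold change of -0.09, and none was called with or without caMNK replicate 2. Cdc20, the activator that the checkpoint blocks, had 156, 132 and 153 CPM in caMNK, against 169 and 163 CPM in pBABE. Bub3, which brings BUB1 and BUBR1 to kinetochores, had 152, 140 and 155 CPM in caMNK, against 163 and 167 CPM in pBABE. Mad2l1, the checkpoint protein MAD2, had 101, 106 and 95.2 CPM in caMNK, against 113 and 108 CPM in pBABE. In these 3 genes all caMNK libraries lay below both pBABE libraries, with log2 fold changes of -0.18 (SE 0.0981), -0.15 (SE 0.0860) and -0.13 (SE 0.0872). Their edgeR adjusted p were 0.292, 0.326 and 0.381. Cdc20 overlaps Elovl1 by 53 bp, and Bub3 lies wholly within the GENCODE span of Fgfr2.

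Ube2c, the ubiquitin-conjugating enzyme of the anaphase-promoting complex, had 102, 113 and 101 CPM in caMNK, against 101 and 96.2 CPM in pBABE (log2 fold change 0.09, SE 0.0899, edgeR adjusted p = 0.565). Birc5, or survivin, of the passenger complex, had 81.4, 76.7 and 84.0 CPM in caMNK, against 81.6 and 79.6 CPM in pBABE. Its log2 fold change was 0.00 with an SE of 0.0843 (edgeR adjusted p = 0.996), and Incenp, the scaffold of that complex, was at -0.05.

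Among 8 spindle proteins none was called and 6 had a negative log2 fold change (median -0.09). Aspm, a spindle pole protein whose loss in humans causes small brain size, lies on chromosome 1 at 139454772 to 139494091 on the plus strand (mm10). It had the most negative estimate of the 48, with 63.9, 79.3 and 51.8 CPM in caMNK, against 88.1 and 89.1 CPM in pBABE. The groups did not overlap, but the caMNK libraries were far apart, and the log2 fold change of -0.45 (SE 0.156) had an edgeR adjusted p of 0.114. Without caMNK replicate 2 the edgeR value was -0.62 with an adjusted p of 0.000107. Tpx2, the activator of Aurora A on spindle microtubules, had 247, 248 and 234 CPM in caMNK, against 282 and 275 CPM in pBABE. Its caMNK libraries were close together and all lower (log2 fold change -0.20, SE 0.0808, edgeR adjusted p = 0.165).

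Tacc3, which crosslinks kinetochore fibres with clathrin, had 130, 118 and 127 CPM in caMNK, against 136 and 135 CPM in pBABE (log2 fold change -0.12, SE 0.0848, edgeR adjusted p = 0.427). It overlaps Tmem129 by 289 bp. Dlgap5, or HURP, a stabiliser of spindle microtubules, had 88.6, 87.3 and 82.5 CPM in caMNK, against 90.9 and 94.6 CPM in pBABE (log2 fold change -0.11, SE 0.0830, edgeR adjusted p = 0.465). All caMNK libraries were lower in both genes, by less than in Tpx2. Hmmr, a spindle and hyaluronan binding protein, had 102, 135 and 82.2 CPM in caMNK, against 112 and 114 CPM in pBABE. It was called lower without caMNK replicate 2 (log2 fold change -0.30, edgeR adjusted p = 0.0194). Its log2 fold change was -0.08 with all libraries and 0.075 without caMNK replicate 3. Prc1, Nusap1 and Ckap2, which bundle or bind microtubules, were at log2 fold changes of -0.07, 0.05 and 0.05, and Prc1 lies wholly within an overlap with Rccd1 while Nusap1 shares 172 bp with Oip5.

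All 3 cytokinesis regulators were negative, with a median log2 fold change of -0.24, and none was called with all 5 libraries. Racgap1, the GTPase-activating subunit of centralspindlin in the midzone, had 188, 197 and 172 CPM in caMNK, against 219 and 219 CPM in pBABE. Ect2, the exchange factor that switches on RhoA at the furrow, had 100, 124 and 78.6 CPM in caMNK, against 128 and 131 CPM in pBABE. In both, no caMNK library reached a pBABE library, and the log2 fold changes were -0.24 (SE 0.0900, edgeR adjusted p = 0.141) and -0.35 (SE 0.164, adjusted p = 0.217). Anln, which binds actin and myosin in the contractile ring, had 367, 435 and 306 CPM in caMNK, against 426 and 432 CPM in pBABE. Its caMNK replicate 2 lay above both pBABE libraries, and the log2 fold change was -0.22 (SE 0.136, edgeR adjusted p = 0.360). Without caMNK replicate 2 all 3 were called lower, at log2 fold changes of -0.29, -0.53 and -0.35 for Racgap1, Ect2 and Anln. Without caMNK replicate 3 these values were -0.18, -0.20 and -0.10, and none of the 3 was called.

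Of the chromosome and cell cycle proteins, Mki67 encodes the proliferation antigen Ki-67, which coats mitotic chromosomes. It had 492, 530 and 380 CPM in caMNK, against 531 and 617 CPM in pBABE (log2 fold change -0.30, SE 0.142, edgeR adjusted p = 0.232). Top2a, the topoisomerase that untangles sister chromatids, had 644, 765 and 552 CPM in caMNK, against 716 and 745 CPM in pBABE (log2 fold change -0.16, SE 0.131, edgeR adjusted p = 0.486). In Mki67 the groups nearly met, at caMNK replicate 2 and pBABE replicate 1, and in Top2a they overlapped. Both were called lower without caMNK replicate 2. Without caMNK replicate 3 their log2 fold changes were -0.16 and -0.05 (edgeR adjusted p = 0.344 and 0.807). Cks2, a small subunit of cyclin-dependent kinase complexes, had 57.9, 71.4 and 58.6 CPM in caMNK, against 56.0 and 51.7 CPM in pBABE. It was the most positive of the 48 (log2 fold change 0.22, SE 0.114, edgeR adjusted p = 0.265).

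Differences between caMNK replicates 2 and 3 went with base composition and, in the members, also with length. Across the 48 members, log2 CPM in replicate 2 minus that in replicate 3 had a Pearson r of -0.75 and a Spearman rho of -0.76 with the GC content of the longest transcript. Across 16255 genes tested the values were -0.41 and -0.49. With transcript length the same difference had r 0.53 and rho 0.58 in the members, and with the deposited gene length 0.46 and 0.69. Over all genes tested these were 0.17 and 0.22 for transcript length, and 0.10 and 0.21 for deposited length. In every case the points are genes of the same 2 libraries and not independent replicates. Kif18a, with 38.2% GC, was 0.78 log2 units higher in replicate 2, Cenpf (43.3% GC) was 0.61 higher, and Spc24 (52.9% GC) had a difference of -0.30. Bub1b, with 50.4% GC, differed by 0.04. All 16 members under 43% GC were higher in replicate 2 (median difference 0.48), and 4 of the 12 members at 50% GC or more were (median -0.09). These limits of GC content were chosen after the values were seen. Members had a median GC content of 46.3% and a median transcript length of 3671 bases, against 49.4% and 2923 bases for the genes tested.

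**Figure D4:**
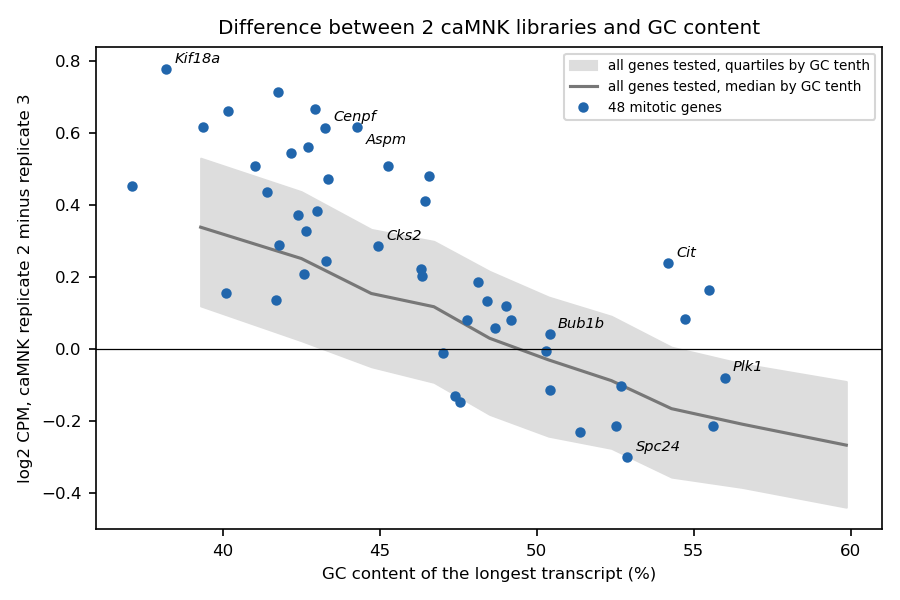
Each blue point is a mitotic gene, with the GC content of its longest transcript on the x axis and log2 CPM in caMNK replicate 2 minus caMNK replicate 3 on the y axis; the line and band give the median and quartiles of all genes tested in 10 equal classes of GC content. The median of all genes is 0.34 in the class of lowest GC content and -0.27 in the highest.

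The caMNK to pBABE log2 fold change of the members was related less to GC content (Pearson r -0.21, Spearman rho -0.20, n = 48) than to transcript length (r -0.57, rho -0.50). Over all genes tested, the values with length were -0.09 and -0.13. With the deposited length, the members' values were -0.39 and -0.35. Some members with long transcripts, such as Aspm, Cenpf and Mki67, sat at the negative end. Others did not: Cenpe (7910 bases) was at -0.10, Mad2l1 (7557 bases) at -0.13 and Kif18a (6509 bases) at 0.11. RNA classes also moved with the groups. Mitochondrial mRNAs summed to 18962, 21665 and 18772 CPM in caMNK, against 12290 and 13533 CPM in pBABE, and 6 of the 10 tested were called higher, led in abundance by mt-Co1, mt-Cytb and mt-Nd4 (log2 fold changes 0.49, 0.70 and 0.74). Nuclear non-coding RNAs summed to 1045, 754 and 984 CPM in caMNK, against 484 and 499 CPM in pBABE, and of the 7 tested 4 were called higher and 1 lower. Malat1, Gas5 and Neat1, the most abundant of them, rose by log2 fold changes of 1.22, 0.34 and 1.34. The part of base composition, length and these RNA classes in the members' values was not tested.

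Further genes of mitosis were nearer to no change. Of 118 others with a row, 117 were tested (Kif2b was at 0 in all libraries). Among them 2 fell (1.71%, against 3.52% of all genes) and 0 rose (against 4.42%). At an unadjusted edgeR p under 0.05, 9 were lower and 4 higher, where 12.1% and 13.8% of all genes were. The median log2 fold change was -0.04. Their values were negative in 65 and positive in 52. Every caMNK library was below both pBABE libraries in 32 (27.4%, against 22.6% of all genes tested) and above both in 14 (12.0%, against 22.3%). Anapc1, the largest scaffold subunit of the anaphase-promoting complex, had 162, 187 and 145 CPM in caMNK, against 237 and 243 CPM in pBABE. It fell by 0.54 on the log2 scale (SE 0.112, edgeR adjusted p = 0.0251), more than any of the 48. Arhgap11a, a RhoA regulator of cytokinesis, had 131, 141 and 117 CPM in caMNK, against 168 and 174 CPM in pBABE (log2 fold change -0.40, SE 0.0973, edgeR adjusted p = 0.0430). Without pBABE replicate 1, pBABE replicate 2 or caMNK replicate 1, neither was called (edgeR adjusted p 0.115 to 0.299). Next by p were Numa1, which anchors spindle poles, at -0.32 (adjusted p = 0.0579), Fbxo5, an inhibitor of the anaphase-promoting complex, at 0.31 (0.0622), Nsl1, a kinetochore protein, at 0.32 (0.0860), and Nek7, a centrosomal kinase that overlaps a neighbour, at -0.35 (0.0891).

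The regulators themselves were not called. Foxm1 had 113, 121 and 107 CPM in caMNK, against 129 and 132 CPM in pBABE, with all caMNK libraries lower (log2 fold change -0.20, SE 0.0875, edgeR adjusted p = 0.201). Without caMNK replicate 2 its adjusted p was 0.0142. Mybl2, the gene of B-MYB, was at -0.07 (edgeR adjusted p = 0.694), and Lin9 of the MuvB complex at 0.23 (0.294). Cdk1, the kinase that drives entry into mitosis, had 144, 142 and 132 CPM in caMNK, against 133 and 136 CPM in pBABE (log2 fold change 0.05, edgeR adjusted p = 0.743). Its partner Ccnb1 had 156, 162 and 138 CPM in caMNK, against 166 and 167 CPM in pBABE (log2 fold change -0.13, edgeR adjusted p = 0.413).

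Genes of DNA replication, which are active earlier in the cell cycle, had a median log2 fold change of 0.02 over 44 tested, 20 negative and 24 positive. edgeR called 0 of them in either direction (2 higher and 4 lower of the 44 at an unadjusted p under 0.05, where 13.8% and 12.1% of all genes were), and DESeq2 called 1 lower. Those with the lowest p were Orc6 of the origin recognition complex at 0.30 (edgeR adjusted p = 0.0677, overlaps a neighbour), Lig1, DNA ligase, at -0.26 (0.0761), Pola1, the catalytic subunit of polymerase alpha, at -0.39 (0.109), and Prim1, primase, at 0.23 (0.121). The helicase subunits Mcm2 and Mcm5 were at -0.22 (0.163) and -0.20 (0.187). Without caMNK replicate 2, 2 of the 44 were called higher and 2 lower, and of the 117 other mitotic genes 5 were called higher and 21 lower (17.9%). That fit called 13.9% of all genes higher and 15.7% lower, so the share of other mitotic genes called lower is near that of all genes and the share of replication genes is below it.

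**Figure D5:**
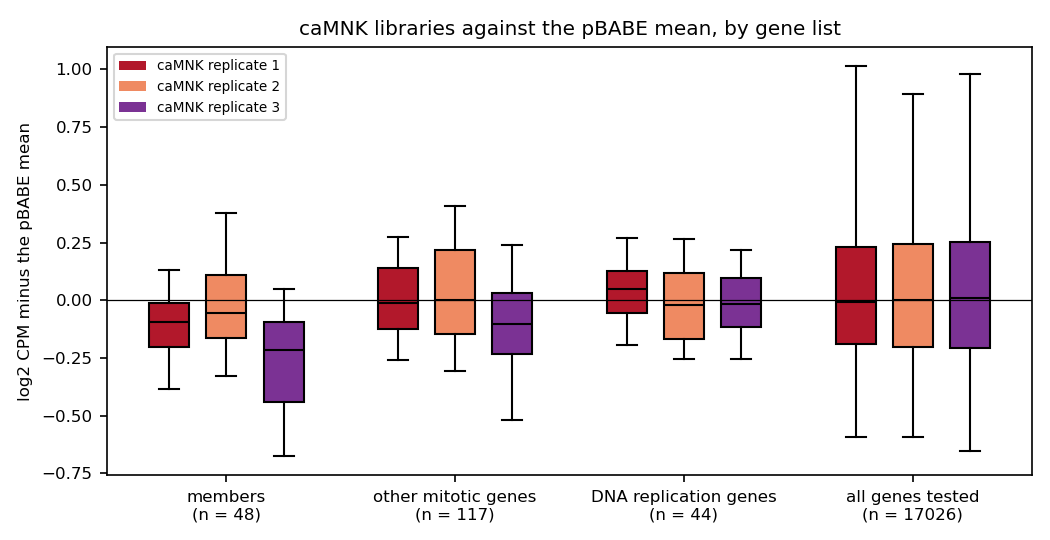
Log2 CPM minus the pBABE mean for each caMNK library, over the 48 mitotic genes, the other mitotic genes, the DNA replication genes and all genes tested; boxes are quartiles with the median, whiskers the 5th and 95th percentiles over genes. The median of the 48 genes is below 0 in every caMNK library and lowest in replicate 3, at -0.22.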

How the data were processed

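RNA of 3 caMNK and 2 pBABE libraries of D4M.3A cells had been made into stranded total RNA libraries, per the labels' protocols. The authors deposited raw read counts per gene, which carry no normalization. The submitters' processing notes name STAR 2.5.3, featureCounts 1.5.3, SAMtools 0.1.19, DESeq2, FastQC 0.11.2, Trimmomatic 0.32 and build mm10; annotation and counting settings were not given in the sources used here. The deposited length equalled the gene's GENCODE M21 span for 36 of the 48 members and the summed exons for 0, so introns can be included. Whether a read in an overlap was counted for both genes is not known. A gene is marked for overlap where an overlapping gene holds 10% or more of its count.

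Counts were tested with edgeR 4.0.16 in R 4.3.3 (filterByExpr, TMM, robust quasi-likelihood F test, group as the only term), with Benjamini-Hochberg adjustment over 17026 genes and a threshold of 0.05. Each SE was taken as the absolute log2 fold change over the root of F, and CPM uses TMM-scaled totals. Log2 CPM had a prior count of 2. DESeq2 1.42.0, other scalings and filters, a replicate block and each library left out were alternatives. The steps were tested on simulated data. The members and gene lists were chosen with earlier results of these data known. Values per library are given for members called, the 4 of lowest p in each role, and others whose groups the text describes, which were chosen after their values were seen; other lists give the 6 of lowest p and 5 cell cycle regulators, and RNA classes the 3 most abundant. GC content and length are those of the longest GENCODE transcript.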

Additional observations from a re-analysis of the deposited data

How the results depend on the processing

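Under other settings the number of the 48 genes called lower was 1 with RLE size factors, total-count scaling or a stricter filter. Those fits called 3.5%, 2.73% and 3.53% of all genes lower. The number was 1 of 39 with genes marked for overlap left out (2.87% of all genes), 3 with DESeq2 (5.18%) and 6 without a filter (4.75%). With a caMNK library left out, 0 to 19 members were called lower, beside 0.474% to 15.7% of all genes. In all these fits 0 members were called higher, beside 1.04% to 13.9% of all genes. The median log2 fold change of the members stayed between -0.14 and -0.08, and between -0.138 and -0.089 with a library left out. Bub1b kept its call under scaling, filter and tool changes (adjusted p 0.00544 to 0.0471) and lost it without pBABE replicate 1 (0.270), pBABE replicate 2 (0.255) or caMNK replicate 1 (0.133). Cit lost it at 0.0505 with RLE, 0.0681 with total-count scaling, 0.0552 with the stricter filter, 0.0600 without genes marked for overlap, and 0.0571 to 0.355 without pBABE replicate 1, pBABE replicate 2, caMNK replicate 1 or caMNK replicate 3. All genes called higher and lower numbered 1591 and 1330 without a filter, 412 and 305 without genes marked for overlap, and 11 to 2325 and 12 to 2617 with a library left out. Of 117 other mitotic genes, 1 was called higher with total-count scaling (5.87% of all genes) and 0 to 5 with a caMNK library left out. Called lower were 1 with total-count scaling, 4 with DESeq2 and 6 without a filter. Without genes marked for overlap 1 of 80 was called lower, and with a caMNK library left out 0 to 21. Of 44 DNA replication genes, 1 was called higher with total-count scaling and 0 to 2 with a caMNK library left out. Called lower were 1 with DESeq2 or without a filter, and 0 to 2 with a caMNK library left out. The shares of all genes given above for each fit stand beside these counts too.

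Whether replicate numbers pair the samples is not known from the labels. The difference between replicates 1 and 2 correlated at -0.0432 between the groups across genes. That value cannot decide it, since differences particular to a single library also enter it. With a replicate block, 3 of the 48 genes were called lower (Aspm, Bub1b and Cit), 3 other mitotic genes higher and 1 DNA replication gene higher. Of all genes, 1477 (8.67%) were called higher and 1231 (7.23%) lower. Only caMNK has a replicate 3, so that library did not enter the group difference of the block fit, which resembles leaving it out. Signs turned for estimates near 0 (log2 fold changes): with the block, Ttk 0.016, Kif23 0.021, Cenpe 0.040, Hmmr 0.058 and Birc5 -0.029; with DESeq2, Birc5 -0.0072 and Nuf2 -0.00044; without a filter, Birc5 -0.0084 and Nuf2 -0.0011; with total-count scaling, Kif23 0.0055. With a library left out, the ranges were -0.18 to 0.021 for Ttk, -0.14 to 0.28 for Kif18a, -0.096 to 0.023 for Kif23, -0.29 to 0.054 for Cenpe, -0.091 to 0.13 for Cenpi, -0.027 to 0.036 for Birc5, -0.014 to 0.14 for Nusap1, -0.12 to 0.0023 for Prc1, -0.30 to 0.075 for Hmmr, -0.034 to 0.038 for Nuf2, -0.0078 to 0.12 for Spc25, -0.035 to 0.13 for Ckap2 and -0.17 to 0.015 for Mybl2. The cause was not tested. Each member had at least 584 counts in every library.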
